A study of Mus musculus with 6 samples.

Results

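The accessible regions near 40 proliferation and replication genes were examined in mouse intestinal organoids by ATAC-seq, an assay that marks open DNA by letting a transposase place adapters in it. A peak was taken as a member when its centre lay within 50 kb of an end of a listed gene and nearer to that gene than to any other protein-coding gene (GRCm38). This gave 148 of the 90823 consensus peaks, at 37 of the 40 genes, with 1 to 13 peaks per gene. Peaks whose centre lay within 1 kb of a gene end, called gene-end peaks here, were kept apart: there were 40 of them at 36 genes, beside 108 peaks farther away. Of the 148 peaks 145 were tested, 39 at gene ends and 106 elsewhere, and 3 with few counts were not (a peak at Plk1 and a pair near Mki67).

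Organoids grown from mouse crypts in Matrigel were kept for 3 days with vehicle, with arachidonic acid (AA, 25 µM), a membrane fatty acid and the precursor of prostaglandins, or with prostaglandin E2 (PGE2, 50 nM). All 3 groups had the same medium, with EGF, Noggin, R-spondin, the GSK3 inhibitor CHIR-99021 and the ROCK inhibitor Y-27632, so the vehicle organoids were also under growth-promoting culture. The treatment labels say PGE2 while the design text names a dimethyl analogue, and the compound is called PGE2 here. Intestinal epithelial cells were sorted before the assay, and each group had 2 libraries that the labels do not tie to separate cultures, so that p-values measure only the spread between these libraries, which may be technical.

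Intestinal crypts divide throughout life, and their dividing cells pass through the same sequence of gene programmes as other cells. E2F transcription factors, held in check by the retinoblastoma proteins, drive the genes that license replication origins, supply nucleotides and start S phase together with cyclin E and CDK2. Later in the cycle the MuvB complex with B-MYB and FOXM1 drives mitotic genes through promoter elements known as CHR. CCAAT, a separate element, is also common in promoters of mitotic genes. Promoters of many of these genes are open in dividing and resting cells alike, so that accessibility is not a measure of transcription.

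Promoter stretches are shown for 4 genes whose gene-end peak rose with PGE2 in the main fit and 3 mitotic genes whose peak did not pass. They set the letters side by side, and the genes were chosen after their values were seen. Of the 4 rises, only that of Rrm2 was also called with DESeq2 or with gene-end peaks scaled apart from all others. The separate scaling called Cdk1 and Plk1 lower. Each stretch is the 120 bases before the annotated start site, in the direction of the gene, from RefSeq (GRCm38.p6), and lies inside the gene-end peak. Capitals mark matches to the E2F letters TTTGGCGC, TTTCCCGC, TTTGCCGC or TTTCGCGC, to the CHR letters TTTGAA or TTCGAA, or to CCAAT, on either strand.
Mcm6: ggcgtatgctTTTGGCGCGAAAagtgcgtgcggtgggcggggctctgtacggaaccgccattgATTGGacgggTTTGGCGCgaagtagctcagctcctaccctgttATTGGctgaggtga
Rrm2: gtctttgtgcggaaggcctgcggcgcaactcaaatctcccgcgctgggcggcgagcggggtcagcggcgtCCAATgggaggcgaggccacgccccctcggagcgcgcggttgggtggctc
Ccnb1: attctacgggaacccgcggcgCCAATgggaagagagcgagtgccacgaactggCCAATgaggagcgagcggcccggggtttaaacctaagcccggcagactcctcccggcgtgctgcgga
Ccnb2: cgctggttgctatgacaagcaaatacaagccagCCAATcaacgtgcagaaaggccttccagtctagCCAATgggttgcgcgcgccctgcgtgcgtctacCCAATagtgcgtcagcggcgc
Cdc20: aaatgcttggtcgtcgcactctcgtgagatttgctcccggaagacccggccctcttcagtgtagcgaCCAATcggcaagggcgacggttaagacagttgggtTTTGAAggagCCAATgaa
Cdk1: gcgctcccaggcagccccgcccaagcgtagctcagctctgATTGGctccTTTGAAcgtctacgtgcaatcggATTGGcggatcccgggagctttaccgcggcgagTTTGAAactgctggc
Plk1: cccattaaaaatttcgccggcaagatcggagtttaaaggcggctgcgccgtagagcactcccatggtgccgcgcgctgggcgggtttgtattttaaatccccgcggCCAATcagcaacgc
The stretches that rose are Mcm6 chr1:128359706-128359825 (minus strand), Rrm2 chr12:24708134-24708253 (plus strand), Ccnb1 chr13:100786487-100786606 (minus strand) and Ccnb2 chr9:70421555-70421674 (minus strand). Those that did not pass are Cdc20 chr4:118437344-118437463 (minus strand), Cdk1 chr10:69352913-69353032 (minus strand) and Plk1 chr7:122159315-122159434 (plus strand). The Mcm6 stretch held 3 E2F matches, of which a pair overlap, and 2 CCAAT matches. Ccnb1 and Ccnb2, the mitotic B cyclins, held 2 and 3 CCAAT matches, and Cdk1, their kinase, held 2 CHR and 2 CCAAT matches. Within these 120 bases, CCAAT occurred in both printed sets, E2F letters in Mcm6 and CHR letters in Cdc20 and Cdk1.

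In the wider start-site window (250 bases before to 50 after the start), which was found for 31 members, 9 held an E2F match (29%, against 2.26% of all 32851 windows in the table). CHR letters were in 12 (38.7%, against 19.2%) and CCAAT in 22 (71%, against 37.4%). By role, E2F letters were in 5 of 7 windows of licensing and helicase genes, CHR letters in 9 of 11 of mitotic genes and CCAAT in 10 of 11 of mitotic genes. The full cAMP response element TGACGTCA, the letters bound by CREB, was in 1 of 31 windows, that of Mcm5, against 1.79% of all. Of the 11 windows at peaks that rose with PGE2, 4 held E2F letters and 2 held CHR letters. Of the 20 at peaks that did not pass, 5 and 10 did. A match is a description of letters and not of a bound site.

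Totals over all peaks were 12374232 to 14236985 counts per library, and the values below are CPM, the counts relative to the TMM-scaled library totals. Member gene-end peaks held a median of 388.9 counts per library and the other member peaks 58, so changes at the former were measured with smaller errors. Gene-end peaks of all genes took 31.4% to 31.9% of the counts with vehicle; the AA libraries gave 32.3% and 32.9% and the PGE2 libraries 34.3% and 35.8%. All 9 epithelial marker genes had a gene-end peak, summing to 557.3 to 572.5 CPM over the 6 libraries, and 0 of 6 stromal and 1 of 4 endothelial markers (Kdr, 2.82 to 3.73 CPM) had such a peak. Of 6 immune markers 2 had such a peak, Itgam and Cd68, whose sum was 34.4 to 36.2 CPM in vehicle libraries, 40.1 to 45.8 in AA libraries and 39.8 to 43.7 in PGE2 libraries, while Ptprc, Cd3e and Csf1r were among those with none. Whether cells of another kind took part in the changes below was not tested. In bulk samples, a larger share of cells of 1 kind and more open DNA per cell cannot be told apart.

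PGE2 against vehicle asked which of these genes lay in chromatin that opened or closed under the prostaglandin. At gene ends the changes were small and went up: 13 of 39 tested peaks rose (33.3%), by 1.2-fold to 1.66-fold, and 0 fell (1 was lower at an unadjusted p under 0.05 with edgeR and 0 with DESeq2). Over all genes 32.1% of the 14457 tested gene-end peaks rose and 5.33% fell, so the share of members that rose was near the background. The members' median log2 change was 0.08, against 0.14 for all gene-end peaks. Calls throughout are from edgeR's quasi-likelihood test with Benjamini-Hochberg adjustment over all tested peaks, at 0.05. The peaks that rose were spread over every role, with 4 of 8 at transcription factor genes, 2 of 3 at S phase cyclin and kinase genes, 2 of 9 at licensing and helicase genes, 1 of 6 at DNA and nucleotide synthesis genes and 4 of 13 at mitotic genes.

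**Figure D1:**
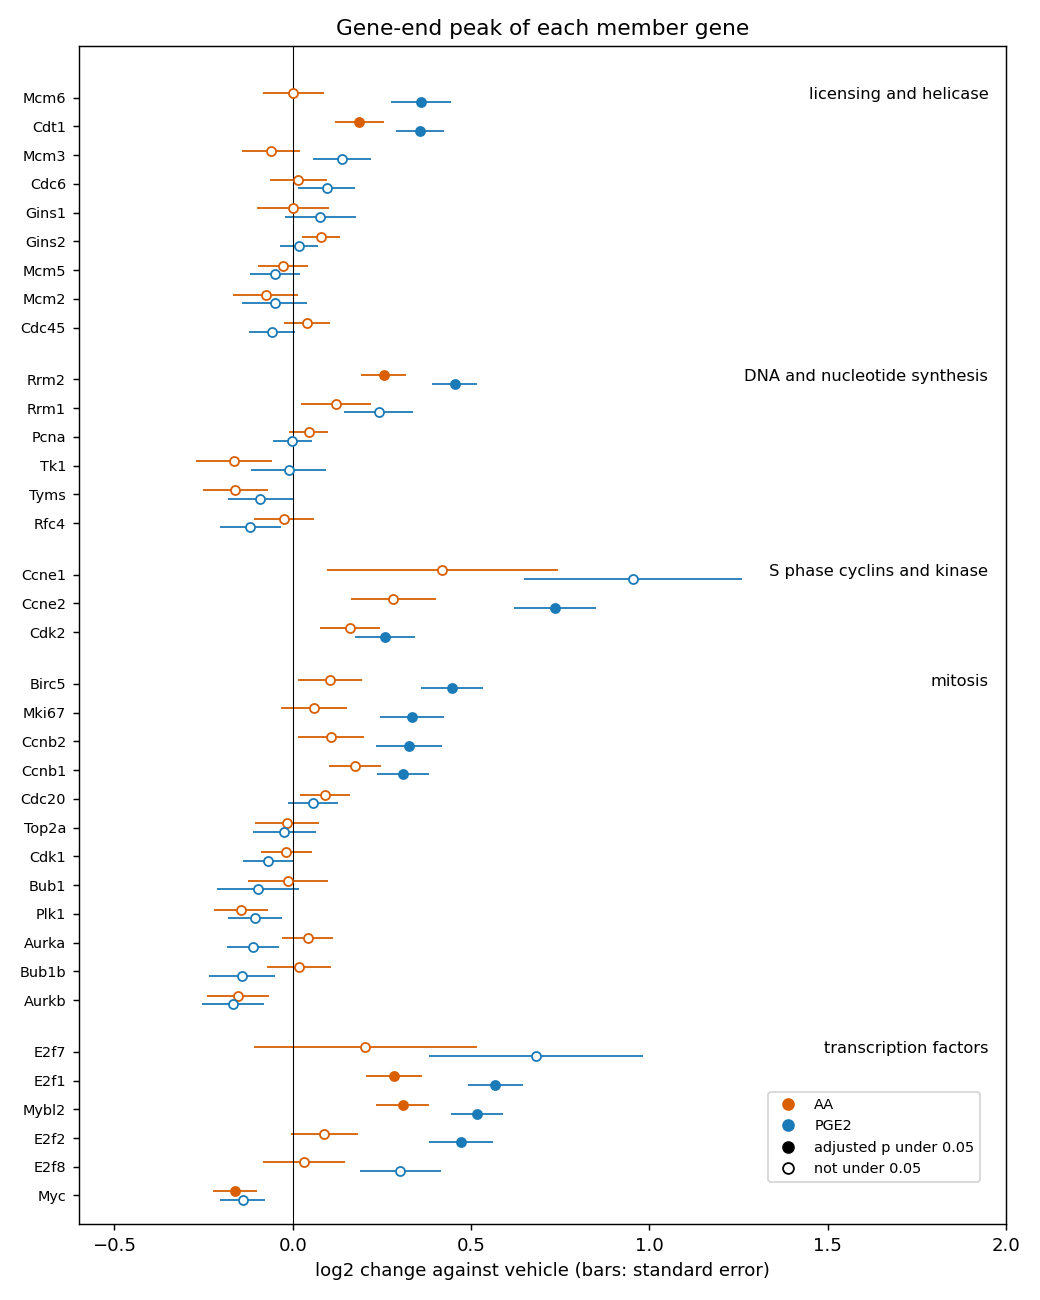
The log2 change against vehicle of the gene-end peak with the highest mean CPM of each of 36 member genes, grouped by role, with AA in orange and PGE2 in blue; bars are standard errors and filled circles have an adjusted p under 0.05. Filled blue circles stand to the right of 0 in every role, from 0.26 at Cdk2 to 0.73 at Ccne2, and the widest bars are those of Ccne1 and E2f7.

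Among the transcription factors, E2f1, the activator E2F that opens the S phase programme, had 33.3 and 28.8 CPM with vehicle and 43.7 and 48.4 with PGE2 at its start-site peak (chr2:154568727-154570503). The groups did not overlap, and the log2 change was 0.57 with an SE of 0.08, or 1.48-fold (adjusted p = 2.42e-07, edgeR). A smaller E2f1 peak, also within 1 kb of an end of its neighbour Necab3, rose as well (log2 0.59, SE 0.19, adjusted p = 0.0167, edgeR), from 3.22 and 3.89 to 5.65 and 5.09 CPM. Mybl2, which encodes the B-MYB subunit that works with MuvB, had 39.8 and 36.7 CPM with vehicle and 50.8 and 58.6 with PGE2, a rise of 1.43-fold (log2 0.52, SE 0.07). E2f2, another activator E2F, rose from 19.6 and 21.1 to 27.2 and 29.2 CPM (log2 0.47, SE 0.09). The repressor E2Fs did not pass the test. E2f7 had 26.9 and 43.5 CPM in the PGE2 libraries against 23.4 and 20.5 with vehicle (log2 0.68, SE 0.30, adjusted p = 0.222, edgeR), and E2f8 had 62.8 and 80.3 against 61.2 and 54.9 (log2 0.30, SE 0.11, adjusted p = 0.0988, edgeR). For both, library 2 of PGE2 stood well above library 1. The start-site peak of Myc, the growth regulator downstream of Wnt signalling, had 53.7 and 52.6 CPM with PGE2 against 57.7 and 59.4 (log2 -0.14, SE 0.06, adjusted p = 0.0925, edgeR).

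The cyclins of S phase entry showed the largest gene-end changes of the set. Ccne2, a cyclin E that activates CDK2, had 33 and 28.8 CPM with vehicle and 44.9 and 58 with PGE2 (log2 0.73, SE 0.12, adjusted p = 0.000785, edgeR). Its partner kinase gene Cdk2 rose from 27.2 and 26.7 to 33.1 and 31.3 CPM (log2 0.26, SE 0.08). Ccne1, the other cyclin E, had 14.3 and 13 CPM with vehicle and 19.8 and 33.2 with PGE2. All values of 1 group lay above the other, but the PGE2 libraries differed 1.68-fold and the change did not pass (log2 0.95, SE 0.31, adjusted p = 0.117, edgeR). The Ccne1 call turned on the estimate of spread: its peak passed without either PGE2 library (adjusted p = 6.67e-30 and 0.00027, edgeR, with the remaining library assumed to vary like the other groups), with a replicate block (adjusted p = 0.0393, edgeR) and with DESeq2 (adjusted p = 0.0296). The E2f7 peak also passed without either PGE2 library. Ccna2, cyclin A, had 1 peak, 1048 bp from an end and so just outside the gene-end class, which rose from 51 and 44.7 to 59.8 and 66.6 CPM (log2 0.40, SE 0.08, adjusted p = 0.000351, edgeR).

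Of the licensing and helicase genes, 2 of 9 passed. Mcm6, a subunit of the replicative helicase, had 27.7 and 27.1 CPM with vehicle and 38 and 32.3 with PGE2 (log2 0.36, SE 0.08, adjusted p = 0.000976, edgeR). Cdt1, which loads that helicase onto origins, rose from 42.4 and 47.1 to 58 and 56.6 CPM (log2 0.36, SE 0.07, adjusted p = 7.52e-05, edgeR). The helicase subunits Mcm2, Mcm3 and Mcm5, partners of Mcm6, had log2 changes of -0.05, 0.14 and -0.05 and did not pass. Cdc6, the loader that works with CDT1, and Cdc45, Gins1 and Gins2, which complete the active helicase, had log2 changes of 0.09, -0.06, 0.08 and 0.02 and did not pass either. The difference between Mcm6 and the other subunits was not tested.

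Within DNA and nucleotide synthesis, Rrm2 alone among 6 tested genes passed. Rrm2 encodes the regulated subunit of ribonucleotide reductase, the enzyme that makes deoxynucleotides, and its peak (chr12:24706738-24708929) rose from 46.9 and 51.8 to 66.5 and 68.7 CPM (log2 0.45, SE 0.06, adjusted p = 3.22e-07, edgeR). Rrm1, the large subunit, had 24.4 and 21.4 CPM with vehicle and 26 and 28.1 with PGE2 (log2 0.24, SE 0.10, adjusted p = 0.063, edgeR). Pcna, the sliding clamp of the polymerases, had the second highest mean CPM among the member gene-end peaks and lay at 82.9 and 80 CPM with vehicle and 79.9 and 82.8 with PGE2, with overlapping groups. Rfc4, a clamp loader subunit, and Tk1 and Tyms, which make thymidine nucleotides, had log2 changes of -0.12, -0.01 and -0.09 and did not pass.

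Mitotic genes divided into those with a change and those with none that passed. Birc5, survivin of the chromosomal passenger complex, rose from 22 and 21.3 to 29.8 and 29.2 CPM (log2 0.45, SE 0.09, adjusted p = 0.000106, edgeR). Mki67, the source of the Ki-67 proliferation antigen, rose from 26.4 and 27.2 to 30 and 37.7 CPM (log2 0.34, SE 0.09). Ccnb1 and Ccnb2, whose promoters are printed above, rose by log2 0.31 (SE 0.07) and 0.33 (SE 0.09). Cdk1, Cdc20 and Plk1, printed beside them, had log2 changes of -0.07, 0.06 and -0.11. Cdk1 had 38.5 and 39.6 CPM with vehicle and 36.6 and 37.9 with PGE2, close together in all libraries. The kinases Aurka and Aurkb, the checkpoint genes Bub1 and Bub1b and the topoisomerase gene Top2a had log2 changes between -0.17 and -0.02 at their leading peaks and did not pass.

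**Figure D2:**
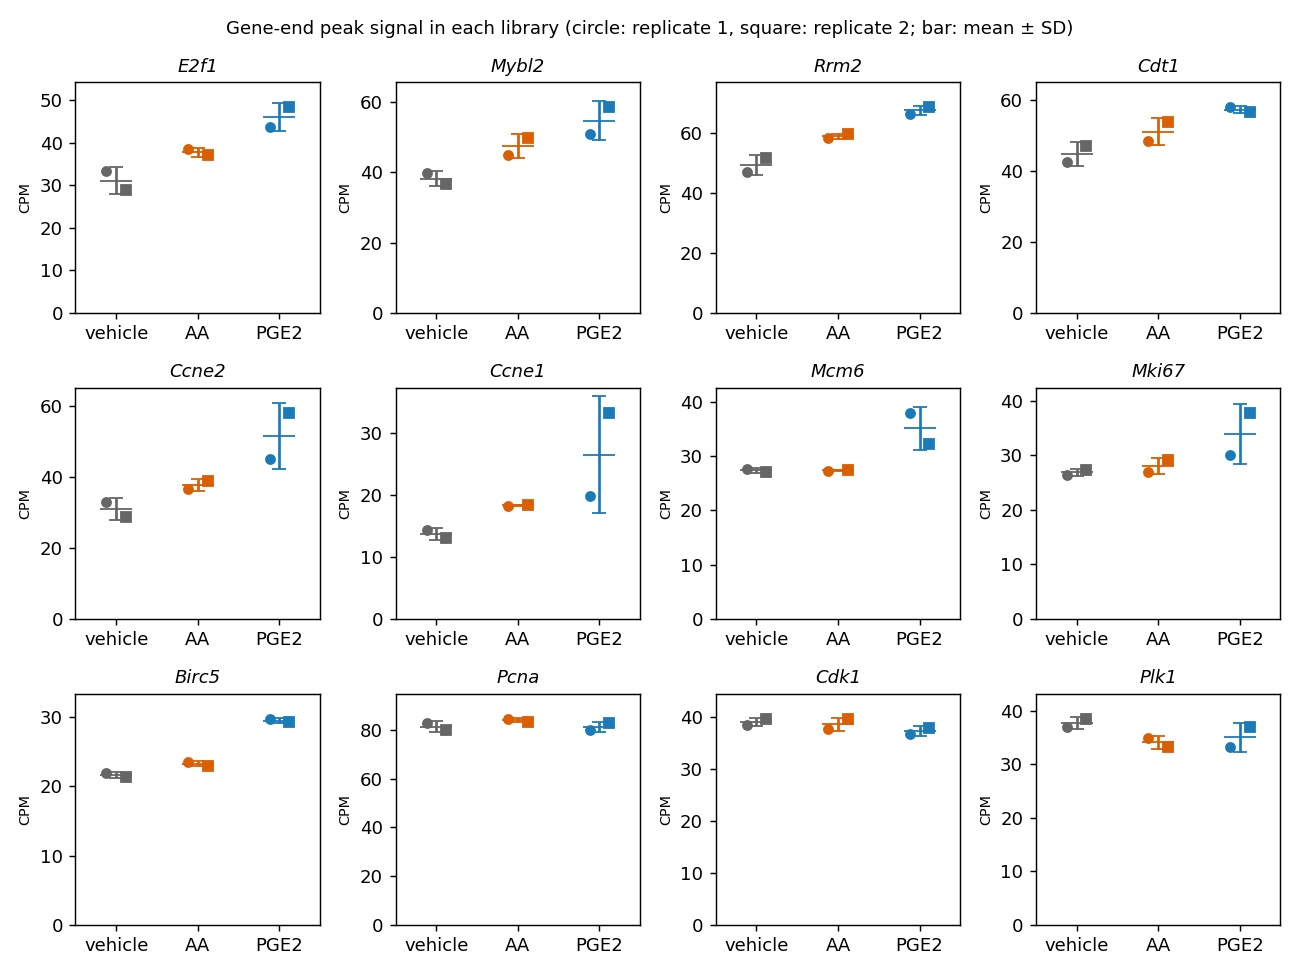
CPM at the gene-end peak of 12 member genes in each of the 6 libraries, with circles for replicate 1 and squares for replicate 2. A line marks the mean of each group, bars are 1 SD (n = 2), and each panel starts at 0 with its own scale. The genes were picked for display and do not show the share that rose, which was 13 of 39 tested member gene-end peaks with PGE2. Both PGE2 points lie above both vehicle points for E2f1, Mybl2, Rrm2, Cdt1, Ccne2, Ccne1, Mcm6, Mki67 and Birc5, and the PGE2 points of Ccne1 are the farthest apart at 19.8 and 33.2 CPM.

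These gene-end calls depended on the scaling, on the test and on single libraries. Mki67 and Ccnb2 were not called without vehicle replicate 1 or without PGE2 replicate 2. Mcm6 was not called without PGE2 replicate 1. Cdk2 and a peak of E2f1 were not called without PGE2 replicate 1 or without vehicle replicate 1. The Cdk2 call was also lost without vehicle replicate 2. When gene-end peaks and all others were scaled separately, the median of all gene-end peaks under PGE2 moved from 0.14 to -0.04. Then 7 of the 13 rises were called (Birc5, Ccne2, Cdt1, E2f1, E2f2, Mybl2 and Rrm2) and 12 other member gene-end peaks were called lower. Of all gene-end peaks 20.4% were called higher and 19.5% lower with that scaling. DESeq2 called the same 7 and Ccne1, and 18% of all gene-end peaks higher.

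Over all gene-end peaks the share that rose differed with the CpG content of the start site and the change with the length of the peak. Of all tested gene-end peaks with a start site within 1 kb, 13% rose with PGE2 where CpG dinucleotides were fewest (0 to 13 in the start-site window), then 27.5% (14 to 21), 47.1% (22 to 29) and 63.5% (30 to 65). The median log2 ratio of PGE2 library 2 to library 1 climbed over the same 4 classes of CpG number, from 0.02 to 0.25, so the PGE2 libraries also differed from each other along this axis. Among members, the windows of the 11 peaks that rose had a median of 27 CpG (18 to 48) and those of the 20 that did not pass 23.5 (8 to 49). At the CpG-rich end, E2f1, with 48 CpG, and Rrm2, with 40, rose. E2f7, with 49, and Ccne1, with 41, had log2 changes of 0.68 and 0.95 that did not pass, and Rfc4, with 34, had a log2 change of -0.12. Between 23 and 27 CpG the members parted: Mybl2, Birc5 and Cdk2 rose by log2 0.52, 0.45 and 0.26, whereas Bub1, Cdk1, Aurka, Cdc20, Mcm5, Plk1 and Pcna lay between -0.11 and 0.06. Over the 39 member gene-end peaks the log2 change under PGE2 correlated with peak length at Pearson r = 0.559, and over all 14457 at 0.216. These correlations run across peaks of the same 6 libraries and are descriptions. What part composition or length had in the members' changes was not tested.

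**Figure D3:**
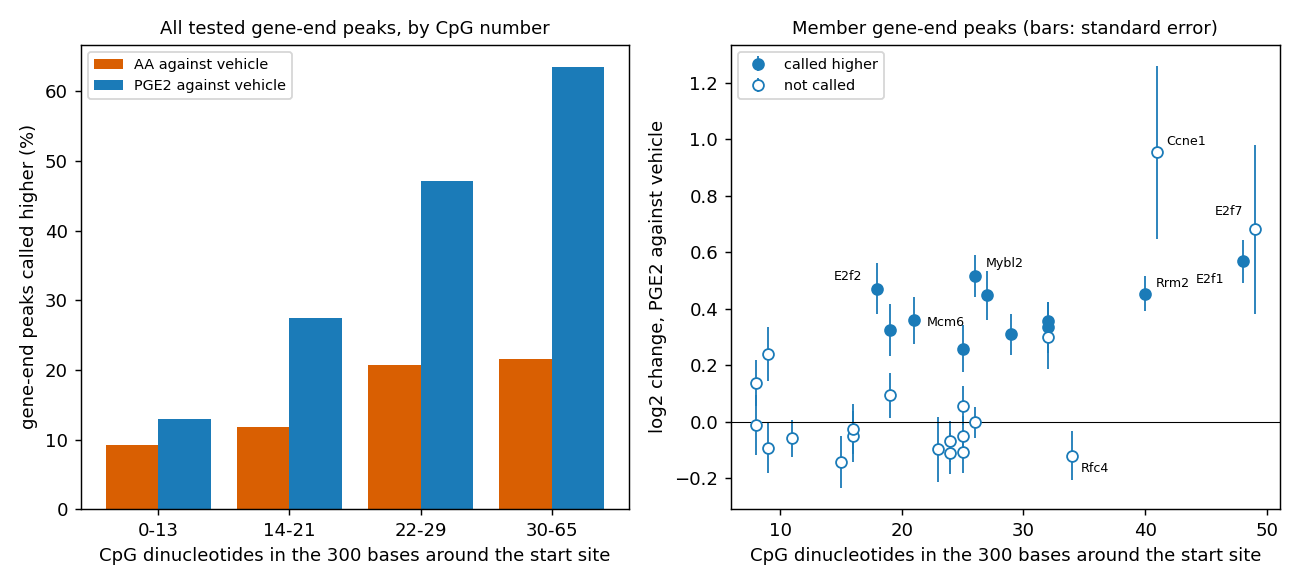
Left, the percent of all tested gene-end peaks called higher with AA (orange) and PGE2 (blue) in 4 classes of CpG number in the window around the start site. Right, the log2 change with PGE2 of each of 31 member gene-end peaks against its CpG number, with standard errors; blue bars at left climb from 13% to 63.5%, and at right filled (called) and open (not called) members stand side by side near 25 CpG.

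AA against vehicle asked the same of the fatty acid. At gene ends 4 of 39 member peaks rose (10.3%) and 2 fell (5.13%), where 14.6% of all gene-end peaks rose and 7.62% fell. The 4 that rose also rose with PGE2; the comparisons share the vehicle libraries. E2f1 had 38.5 and 37 CPM with AA against 33.3 and 28.8 with vehicle (log2 0.28, SE 0.08, adjusted p = 0.00465, edgeR). Mybl2 had 45 and 49.9 against 39.8 and 36.7 CPM (log2 0.31, SE 0.07, adjusted p = 0.00133, edgeR). Rrm2 had 58.2 and 59.6 against 46.9 and 51.8 CPM (log2 0.25, SE 0.06), and Cdt1 48.3 and 53.7 against 42.4 and 47.1 (log2 0.19, SE 0.07). In each of these the AA libraries lay above the vehicle libraries. The peaks that fell were the start-site peak of Myc, at 53.5 and 51.2 against 57.7 and 59.4 CPM (log2 -0.16, SE 0.06, adjusted p = 0.0437, edgeR), and a peak at the far end of E2f2, at 6.69 and 4.24 against 7.66 and 7.55 CPM (log2 -0.46, SE 0.17). Of 13 mitotic gene-end peaks 0 passed with AA by edgeR or DESeq2. At an unadjusted p under 0.05 edgeR had 1 higher and DESeq2 0. Of all gene-end peaks DESeq2 called 3.04% higher with AA and 1.4% lower. DESeq2 called 0 of these 6 changes (4 gene-end peaks were higher and 0 lower at its unadjusted p under 0.05), and without AA replicate 2, vehicle replicate 1 or vehicle replicate 2 edgeR called 2 of these rises and 0 of the falls each time. With either PGE2 library left out of the fit, 7 member gene-end peaks rose with AA, Ccnb1, Ccne1 and Ccne2 being added.

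PGE2 against AA tested the difference between the treatments, whose doses differ. At gene ends 7 member peaks were higher with PGE2 than with AA (17.9%) and 0 were lower (1 at an unadjusted p under 0.05 with edgeR, 0 with DESeq2), where 16.7% of all gene-end peaks were higher and 1.52% lower. These were Mcm6 (log2 0.36, SE 0.08, adjusted p = 0.00339, edgeR), E2f2 (0.38, SE 0.09), Birc5 (0.34, SE 0.09), E2f1 (0.28, SE 0.08), Ccne2 (0.45, SE 0.11), Rrm2 (0.20, SE 0.06) and Mki67 (0.28, SE 0.09). Mcm6 had 27.4 and 27.5 CPM with AA, level with the 27.7 and 27.1 of vehicle, and Birc5 had 23.5 and 23 with AA against 29.8 and 29.2 with PGE2. For Mybl2 and Cdt1 the difference from AA did not pass (log2 0.21 and 0.17, adjusted p = 0.0539 and 0.0985, edgeR). Of the 7, 0 were called without AA replicate 1 or with DESeq2, whose unadjusted p was under 0.05 for 6 member gene-end peaks, and 2, Mcm6 and E2f2, without AA replicate 2; the count was 11 without PGE2 replicate 1 and 4 without PGE2 replicate 2. When gene-end and other peaks were scaled separately 2 were called, Ccne2 and E2f2, and 5 other member gene-end peaks were called lower. Of all gene-end peaks 9.73% were called higher and 7.19% lower with that scaling, and 1.78% higher with DESeq2. The share of all gene-end peaks called higher also fell with either AA library left out.

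Taking all 145 tested member peaks, 29 rose with AA (20%) and 18 fell (12.4%), against 16.7% and 13.8% of all peaks. With PGE2 35 rose (24.1%) and 9 fell (6.21%), against 14.3% and 10.6%. PGE2 against AA gave 12 higher (8.28%) and 2 lower (1.38%), against 4.88% and 5.06%. Away from gene ends, 25 of 106 rose and 16 fell with AA (23.6% and 15.1%, against 17.1% and 15%), and 22 rose and 9 fell with PGE2 (20.8% and 8.49%, against 10.9% and 11.6%). PGE2 against AA gave 5 higher and 2 lower there (4.72% and 1.89%, against 2.6% and 5.75%). Neither difference from the background was tested. Side by side, 20 peaks rose and 8 fell with both treatments, 9 rose and 10 fell with AA only by the calls, 15 rose and 1 fell with PGE2 only by the calls, and 0 were called in opposite directions. These counts were lower with DESeq2, which called 7 rises and 4 falls with AA and 17 and 2 with PGE2, and they moved with the scaling: when gene-end and other peaks were scaled separately PGE2 gave 30 rises and 21 falls. Leaving out single libraries gave 17 to 34 rises with AA, 23 to 33 with PGE2 and 1 to 17 peaks higher with PGE2 than with AA, the lowest of these without vehicle replicate 2, vehicle replicate 1 and AA replicate 1 respectively.

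The Myc region held 13 peaks, and peaks there moved in both directions. On the lower-coordinate side, a strong peak 45812 bp from the gene (chr15:61939101-61939956) had 30.9 and 32.1 CPM with vehicle, 16.1 and 20.6 under AA and 22.1 and 23.5 under PGE2. It fell with both, 1.73-fold with AA (log2 -0.79, SE 0.10, adjusted p = 1.18e-08, edgeR) and 1.38-fold with PGE2 (log2 -0.47, SE 0.09), and PGE2 was higher than AA (log2 0.32, adjusted p = 0.0315, edgeR). Its neighbour 37021 bp away (chr15:61947860-61948780) fell from 14.2 and 13 CPM to 7.32 and 7.83 with AA (log2 -0.85, SE 0.13) and to 9.54 and 9.8 with PGE2 (log2 -0.49, SE 0.12). On the other side several peaks rose. A weak peak 38277 bp beyond the gene (chr15:62028469-62028807) went from 0.842 and 0.763 CPM to 3.24 and 2.69 with AA and 2.44 and 1.93 with PGE2, 3.68-fold and 2.7-fold. The peak 1926 bp beyond it (chr15:61991962-61992613) rose from 4.06 and 4.65 to 7.81 and 7.59 with AA and 7.94 and 5.94 with PGE2. A peak 47929 bp away (chr15:62037733-62038847) rose with PGE2, to 9 and 13 CPM, from 7.28 and 8.09 with vehicle, while AA had 7.25 and 6.61. Non-coding genes were not considered in the assignment, so this peak may lie at one. In all, 4 peaks rose and 4 fell with AA and 5 rose and 3 fell with PGE2 at this gene, and not every fall is described here. Of all tested peaks 16.7% rose and 13.8% fell with AA, and 14.3% rose and 10.6% fell with PGE2. DESeq2 did not call the PGE2 changes of the peaks 37021, 1926 and 47929 bp away, nor the difference between treatments at the first peak.

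E2f7, the atypical E2F that represses the S phase programme, had 2 distant peaks that fell with both treatments. The peak 37710 bp away (chr10:110707342-110708115) went from 3.91 and 3.74 CPM to 1.41 and 1.63 with AA (log2 -1.33, SE 0.26, adjusted p = 6.82e-05, edgeR) and 1.76 and 2.01 with PGE2 (log2 -1.02, SE 0.25). The peak 24186 bp beyond the other end (chr10:110811336-110811803) went from 3.75 and 2.67 CPM to 1.2 and 1.63 and to 1.68 and 1.78 (log2 -1.19 and -0.89). The PGE2 calls of both were lost with DESeq2 (adjusted p = 0.0898 and 0.209), and that of the latter also without PGE2 replicate 1 (adjusted p = 0.0531, edgeR) or vehicle replicate 1. The AA call of the latter was lost with DESeq2 and without vehicle replicate 1. Of the 11 E2f7 peaks 0 were called higher with either treatment in the main fit. Of all tested peaks 16.7% rose with AA and 14.3% with PGE2. The start-site peak of E2f7 had a log2 change of 0.68 with PGE2 that did not pass. As given above, its call changed when a PGE2 library was left out.

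Tyms, the thymidylate synthase gene, showed the reverse arrangement: its start-site peak did not pass with either treatment, but peaks around it rose. The peak 6504 bp outside the gene (chr5:30079852-30080447) rose from 3.06 and 2.29 CPM to 6.12 and 4.73 with AA (log2 1.03, SE 0.21) and 7.86 and 6.95 with PGE2 (log2 1.47, SE 0.19, adjusted p = 1.4e-07, edgeR). Within Tyms itself, a peak (chr5:30039355-30040211) rose from 4.67 and 3.97 to 7.67 and 6.77 and to 9.31 and 6.79 CPM. Of its 5 peaks 3 rose with AA and 4 with PGE2, where 16.7% and 14.3% of all tested peaks rose. At Ccne1, a peak 20578 bp away (chr7:38077177-38077636) rose from 2.68 and 3.74 CPM to 6.47 and 8.4 with AA (log2 1.20, SE 0.19) and 6.11 and 5.86 with PGE2 (log2 0.90, SE 0.20). Another 36650 bp away (chr7:38060907-38061762) rose with PGE2, from 8.88 and 8.09 to 13 and 13 CPM (log2 0.61, SE 0.13), against 9.5 and 10.8 with AA. Gins1, a subunit of the helicase's GINS complex, had a peak inside the gene (chr2:150913582-150914120) that rose with AA, from 5.82 and 5.11 to 11.3 and 11.7 CPM (2.09-fold, log2 1.07, SE 0.14, adjusted p = 8.27e-08, edgeR), and rose 1.71-fold with PGE2, to 8.78 and 9.95 CPM. Its start-site peak had log2 changes of 0.00 and 0.08.

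**Figure D4:**
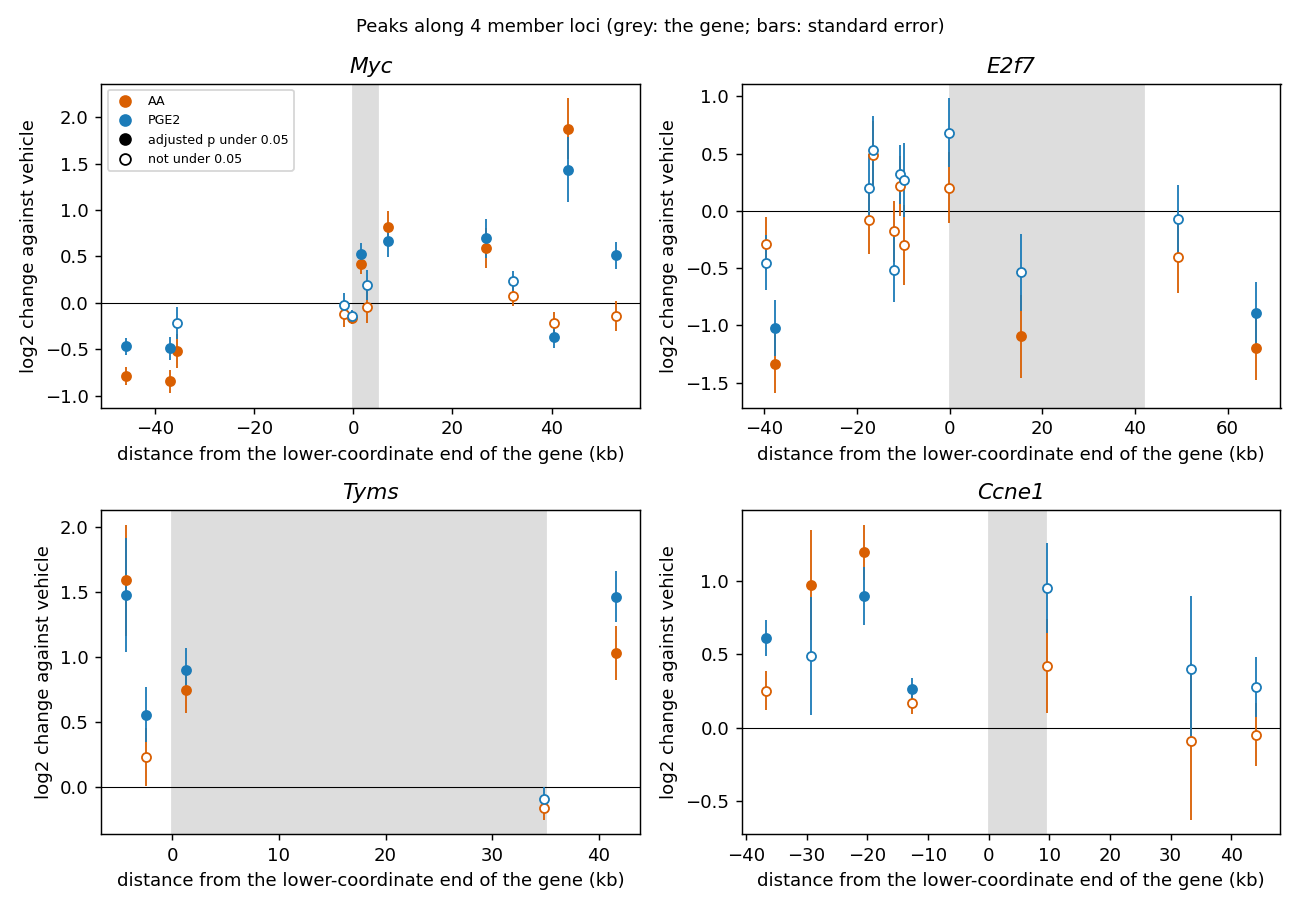
Log2 change against vehicle of every tested peak at Myc, E2f7, Tyms and Ccne1 by distance from the lower-coordinate end of the gene in kb, with AA in orange, PGE2 in blue, filled circles for an adjusted p under 0.05, standard errors as bars and the gene in grey. At Myc filled circles lie below 0 to the left, at -0.79 and -0.85 with AA, and mostly above 0 to the right. At E2f7 all filled circles lie below 0, and the start-site peak with PGE2 is an open circle at 0.68.

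Single distant peaks at other members moved as well. Near Mki67 a peak 7464 bp outside the gene (chr7:135723561-135724267) fell from 6.13 and 4.81 CPM to 2.74 and 2.94 with AA (log2 -0.95, SE 0.20) and 2.9 and 2.32 with PGE2 (log2 -1.06, SE 0.21), while the gene's start-site peak rose with PGE2. A peak inside Bub1b (chr2:118637231-118638482) fell from 14.3 and 14.2 CPM to 8.8 and 9.87 with AA and 10.8 and 8.8 with PGE2, and a peak inside E2f2 (chr4:136180901-136181182) from 7.2 and 7.78 to 5.07 and 4.73 and to 4.5 and 5.56. Other changes passed with AA but not with PGE2. A weak peak inside Cdk1 (chr10:69340112-69340404) rose from 1.15 and 1.68 to 3.17 and 3.35 CPM with AA (log2 1.20, SE 0.28) and had 1.6 and 2.62 with PGE2. Beside Mybl2 a peak 2468 bp from the gene (chr2:163051708-163052011) fell from 8.88 and 9.31 to 6.54 and 6.2 CPM with AA (log2 -0.51, SE 0.14) and lay at 8.62 and 9.34 with PGE2, a difference between the treatments of log2 0.49 (adjusted p = 0.0203, edgeR). The 2 member peaks lower with PGE2 than with AA had risen with AA only by the calls. These were a peak 28166 bp from Mcm3 (chr1:20847946-20849009), at 21 and 20.1 CPM with vehicle, 25.8 and 26.4 under AA and 20.8 and 19.4 under PGE2, and a peak inside Gse1 assigned to Gins2 (chr8:120563424-120564491), at 16.5 and 16.3, 23 and 21.1, and 17.7 and 18.3 CPM. A peak inside Cdc6 (chr11:98921936-98922506) fell with AA (log2 -0.63, SE 0.24, adjusted p = 0.0432, edgeR), and a peak 46210 bp from Cdk1 (chr10:69398310-69399934) rose with PGE2 (log2 0.40, SE 0.12), with 15.7 and 17.2 CPM against 13.6 and 11.4. Of these distant changes against vehicle, from Mki67 to Cdk1, DESeq2 called the fall near Mki67 with PGE2 and the fall inside Bub1b with AA, and it called none of the differences between treatments.

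Foxm1, Mcm4 and Mcm7 had no peak of their own because the peak at their start lay nearer to the end of a neighbour, Rhno1, Prkdc and Ap4m1 respectively. The peak that Foxm1, the forkhead factor of mitotic genes, shares with Rhno1 (chr6:128361888-128363387) had 17.4 and 16.2 CPM with vehicle, 19.1 and 18.6 under AA and 21.3 and 26.8 under PGE2. It rose with PGE2 (log2 0.52, adjusted p = 0.000155, edgeR). Those of the helicase subunits Mcm4 and Mcm7 had log2 changes of -0.07 and 0.01 with PGE2 and did not pass. Likewise 6 member gene-end peaks lay within 1 kb of a neighbour's end, at Tk1, Cdc45, Pcna, Aurka, and the second peaks of E2f1 and Plk1, so a change there cannot be given to 1 gene.

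A wider list of 50 cell cycle genes without the members had tested peaks at 44. With PGE2 10 of its 41 tested gene-end peaks rose (24.4%) and 1 fell (2.44%), with a median log2 change of 0.04, where 32.1% of all gene-end peaks rose and 5.33% fell. Kif23, a kinesin of the central spindle, had 37.2 and 38.5 CPM with vehicle, 49.3 and 56.5 under AA and 63.4 and 64.5 under PGE2, and rose with both (log2 0.48 and 0.76). A weak peak 315 bp from an end of Fen1, a flap nuclease of replication, fell with both (log2 -0.69 and -0.61). It went from 7.28 and 6.49 CPM to 4.08 and 4.49 with AA and 4.5 and 4.48 with PGE2. Whether it marks the start or the far end of Fen1 was not determined. With AA 2 of the 41 rose (4.88%) and 1 fell (2.44%), against 14.6% and 7.62% of all gene-end peaks.

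The partners and inhibitors of the E2Fs were examined in the same way. With PGE2, of 16 tested gene-end peaks at 12 of the 13 retinoblastoma, E2F, DP and MuvB genes, 10 rose (62.5%) and 0 fell. Of all gene-end peaks 32.1% rose and 5.33% fell. The median log2 change of the 16 was 0.655, and Rb1 and Tfdp1 each gave 2 of the rises. Over all 55 tested peaks of the list, 14 rose (25.5%) and 1 fell (1.82%), against 14.3% and 10.6% of all peaks. The list was not tested against other genes. Its calls and those of the wider list were not examined with DESeq2 or other scalings. Rbl1, the pocket protein p107, had 17.5 and 19.1 CPM with vehicle, 16.4 and 19.4 under AA and 27.3 and 30.9 under PGE2 (log2 0.67, SE 0.10, adjusted p = 7.66e-07, edgeR). The larger of a pair of peaks at Rb1, the retinoblastoma gene, rose from 7.05 and 7.78 to 11.3 and 15.7 CPM with PGE2 (log2 0.86, SE 0.14). Tfdp2, a DP partner of the E2Fs, rose from 29.4 and 24.6 to 39.1 and 50.9 CPM (log2 0.74, SE 0.13). E2f3, the remaining activator E2F, had 106.5 and 110.2 CPM with vehicle and 108.8 and 104.5 with PGE2 and did not pass. With AA 2 of the 16 rose (12.5%) and 1 fell (6.25%), against 14.6% and 7.62%.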

How the data were processed

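ATAC-seq was measured in 6 libraries. The authors deposited 1 table of raw counts per consensus peak, counted with featureCounts 1.6.3 per the file headers. Trim Galore, BWA, Picard, SAMtools and MACS2 and build mm10 are named per the submitters' processing notes; for their settings, and for any shift of reads for the transposase, the sources used here give nothing. Peaks were assigned to protein-coding genes with RefSeq GRCm38.p6 by distance to either gene end, which takes in start and far ends alike. All 6 libraries entered 1 edgeR (4.0.16) quasi-likelihood fit, robust, with TMM scaling, after filterByExpr removed 1476 peaks and kept 89347. The fit had 3 residual degrees of freedom and borrowed spread across peaks (median prior 42.3). Each standard error (SE) is the one implied by the F statistic, and a fold or log2 change is the fit's. The fit was also run on simulated counts drawn with its own estimate of spread. Those counts had no shift shared by gene-end peaks and no diverging library, so that run cannot speak to either. The members and gene lists were chosen with earlier results of these data known.

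Peaks were named by a rule: each member's gene-end peak with the highest mean CPM; for each comparison up to 6 of the largest rises and falls among called distant peaks whose average log2 CPM reached 1 and whose groups did not overlap; and the called gene-end peaks of lowest p, up to 6 up and 6 down. The second E2f1 peak, the Ccna2 peak, those of Foxm1, Mcm4 and Mcm7 and genes of the other lists were named outside the rule after their values were seen. Alternatives were other scalings, filters, DESeq2 (1.42.0), a replicate block, fits on 2 groups, omitted libraries, other distances and a threshold of 0.01. Motifs were searched as exact letters in the promoter windows.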

Additional observations from a re-analysis of the deposited data

How the results depend on the processing

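Calls rested on 2 libraries a group, and the numbers of called member peaks moved more than their directions. With DESeq2, AA gave 7 rises and 4 falls (0 rises at gene ends), PGE2 gave 17 and 2 (8 at gene ends), and PGE2 against AA gave 0 and 0 (0 at gene ends). Where gene-end peaks were scaled apart from the others, PGE2 gave 21 falls and 7 gene-end rises, PGE2 against AA gave 6 lower in all (5 of them at gene ends) and 2 higher at gene ends, and the Gins2 gene-end peak turned from log2 0.02 to -0.16 (adjusted p = 0.0216, edgeR). The shares of all gene-end peaks called moved with these settings too, as given above. The cause was not tested. AA gave 4 gene-end rises and 1 fall with RLE size factors and 3 and 3 with loess scaling, against 4 and 2. Fitting only the 2 groups compared gave 7 gene-end rises with AA. With peaks counted only within 10 kb, fewer peaks were members, and AA gave 7 falls, PGE2 3 and PGE2 against AA 0. Counting peaks also where another gene was nearer took in more peaks, and AA gave 65 rises and 40 falls, PGE2 74 and 22, and PGE2 against AA 25 and 8. At a threshold of 0.01, AA gave 19 and 9, and PGE2 against AA 5 and 1, with 3 at gene ends.

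Leaving out each library in turn gave 17 to 34 rises (17 without vehicle replicate 2, 19 without AA replicate 2) and 9 to 19 falls (9 without vehicle replicate 1, 11 without vehicle replicate 2 or AA replicate 2) with AA, with 2 to 7 rises at gene ends (2 without vehicle replicate 2 or AA replicate 2, 7 without either PGE2 library). With PGE2 it gave 23 to 33 rises (23 without vehicle replicate 1) and 7 to 9 falls, with 9 to 14 rises at gene ends. PGE2 against AA gave 1 to 17 higher (1 without AA replicate 1, 6 without AA replicate 2, 5 without PGE2 replicate 2) and 0 to 3 lower (0 without AA replicate 2, 1 without AA replicate 1, vehicle replicate 2 or PGE2 replicate 1), with 0 to 11 higher at gene ends (0 and 3 without AA replicate 1 and 2, 11 and 4 without PGE2 replicate 1 and 2). The lone library of a group was assumed to vary like the others. The called peaks were not the same ones in each of these fits. Same-numbered libraries deviated from their group means with correlations of -0.02 to 0.04. With 2 libraries a group the deviations are mirror images, so these values cannot tell whether same-numbered libraries were prepared together. A replicate block gave 29 rises and 18 falls with AA, 36 and 9 with PGE2, and 12 and 2 for PGE2 against AA. It added Ccne1 to the PGE2 gene-end calls and dropped a distant Ccne1 peak from PGE2 against AA (adjusted p = 0.0505, edgeR). The dropped peak was near the threshold in the main fit (adjusted p = 0.049, edgeR). It was also lost with RLE size factors, library totals, loess scaling, the fit on 2 groups and DESeq2. Distant member peaks with a median of 58 counts per library allow only larger changes to be called.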
